A study of Homo sapiens with 3 samples.

Results

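The genes described here are 34 genes of mitosis and the spindle, out of 20037 protein-coding genes of the RefSeq GRCh38 annotation. The list was drawn up by gene name and function, with earlier results of these data known. They comprise CDK1 with its cyclins and CDC25 phosphatases, the Polo and Aurora kinases with their partners, the spindle checkpoint, the kinetochore, spindle motors and midzone proteins, separase and securin, 2 chromosome proteins, and FOXM1. Every peak at either annotated gene end (within 1 kb), inside the gene, or within 50 kb of it was taken from the deposited peak tables.

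The study measured histone H3 lysine 4 methylation by chromatin immunoprecipitation and sequencing (ChIP-seq) in the established human line ALL-SIL, grown from a T-cell acute lymphoblastic leukaemia. It holds 1 H3K4me3 library, 1 H3K4me1 library and 1 library of input DNA, from cultured cells that were fixed with formaldehyde, with no treatment of the cells named in the labels. No group had a replicate, so no difference below carries a p-value, and the intervals given are exact Clopper-Pearson 95% intervals for counting error only. After filtering, 30823016 tags of the H3K4me3 library gave 11100 peaks, 34813455 tags of the H3K4me1 library gave 62087 peaks, and the input held 18859011 tags. As a check of the cell type, all 9 T-lineage genes examined (CD3D, CD3E, CD3G, CD7, BCL11B, GATA3, TCF7, LEF1 and TLX1) had an H3K4me3 peak at an end or inside, and of the markers of other lineages, the 8 reported here had none (CD79A, CD14, LYZ, HBB, GATA1, ALB, NEUROD1 and MYOD1).

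H3K4me3 marks the starts of genes that are open to transcription, whereas H3K4me1 lies beside those starts and over enhancers. Cells divide by switching on CDK1 with its B-type cyclins, building a bipolar spindle, holding anaphase until every kinetochore is attached, and then cutting cohesin and the cell itself. The genes for this machinery are transcribed late in the cell cycle and are known to be controlled through a CCAAT box, bound by NF-Y, and a cell cycle genes homology region (CHR), bound by the DREAM and MYB-MuvB complexes, to which FOXM1 is recruited. T-ALL cells in culture proliferate, but histone marks in a mixed culture do not show which cells were dividing.

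The RefSeq promoter table, which gives the 250 bases before and 50 bases after each annotated start, held 37 promoters of 28 of the 34 genes. AURKA, BUB3, TTK, TPX2, BIRC5 and FOXM1 were not in it. Both strands were searched for the CHR word TTTGAA, for its variant TTCGAA and for a further variant TTTAAA, the last pair being palindromes that were counted once. They were also searched for CCAAT, which on the other strand reads ATTGG. The stretches below are the 150 bases before the start, 5′ to 3′ in the direction of the gene, from GRCh38.p14, with CHR words and CCAAT boxes in capitals. The first 7 are shown for their pairs of CCAAT and CHR words, and CDC25A for its CCAAT boxes without a CHR word.
CCNB1 chr5:69167000-69167149 (+ strand): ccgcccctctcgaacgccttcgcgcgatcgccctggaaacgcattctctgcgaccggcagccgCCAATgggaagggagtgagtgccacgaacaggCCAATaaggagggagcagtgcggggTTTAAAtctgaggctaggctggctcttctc
CCNB2 chr15:59104996-59105145 (+ strand): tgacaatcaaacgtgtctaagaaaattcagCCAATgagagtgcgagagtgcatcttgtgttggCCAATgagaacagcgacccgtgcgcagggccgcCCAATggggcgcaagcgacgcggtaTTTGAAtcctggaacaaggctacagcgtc
PLK1 chr16:23678739-23678888 (+ strand): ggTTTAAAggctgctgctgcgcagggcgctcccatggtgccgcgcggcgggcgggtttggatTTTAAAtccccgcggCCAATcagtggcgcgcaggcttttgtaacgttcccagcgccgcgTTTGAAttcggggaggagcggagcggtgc
CDC20 chr1:43358831-43358980 (+ strand): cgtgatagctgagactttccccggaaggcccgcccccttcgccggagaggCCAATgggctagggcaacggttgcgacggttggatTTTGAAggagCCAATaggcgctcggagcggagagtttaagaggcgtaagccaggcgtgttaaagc
INCENP chr11:62123861-62124010 (+ strand): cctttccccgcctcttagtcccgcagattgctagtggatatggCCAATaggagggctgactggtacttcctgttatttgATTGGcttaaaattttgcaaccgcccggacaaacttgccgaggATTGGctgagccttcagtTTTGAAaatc
KIF11 chr10:92592980-92593129 (+ strand): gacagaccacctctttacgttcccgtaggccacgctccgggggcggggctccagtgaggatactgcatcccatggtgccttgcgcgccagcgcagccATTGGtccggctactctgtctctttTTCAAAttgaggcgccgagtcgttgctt
MKI67 chr10:128126424-128126573 (- strand): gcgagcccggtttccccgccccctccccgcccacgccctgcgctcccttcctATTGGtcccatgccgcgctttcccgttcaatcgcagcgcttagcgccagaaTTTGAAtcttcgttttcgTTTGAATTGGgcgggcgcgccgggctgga
CDC25A chr3:48188418-48188567 (- strand): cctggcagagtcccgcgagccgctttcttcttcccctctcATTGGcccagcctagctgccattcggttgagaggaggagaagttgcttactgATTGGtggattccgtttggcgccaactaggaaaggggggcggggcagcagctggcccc

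A CHR word was common in these promoters. TTTGAA was in 21 of 37 promoters (56.8%, 39.5 to 72.9%), which belong to 19 genes, against 12.4% of the 22183 promoters of protein-coding genes and 8.85% of the 9880 of them whose start lay under an H3K4me3 peak. Among all 35097 promoters of the table the share was 15.2%. The windows of several starts of 1 gene can overlap, so the 37 promoters are not independent, although the interval treats them so. With only the most upstream start of each gene, TTTGAA was in 64.3% of 28 promoters, against 12.2% of the 15843 of protein-coding genes. Any of the 3 CHR words was in 29 of 37 promoters of 25 genes (78.4%), against 21.4% of protein-coding promoters and 25.1% of all. TTTAAA was in 32.4% of the mitosis promoters, against 10.2% of protein-coding and 12.2% of all promoters. TTCGAA was in 8.11%, against 1.54% and 1.45%. CCNA2, CDC25A and AURKB had no CHR word in any listed promoter. A word that is absent says only that those letters were not in the window.

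CCAAT was in 28 of 37 promoters of 23 genes (75.7%), against 34.7% of protein-coding promoters and 34.6% of all. At least 2 copies were in 40.5%, against 11.4% and 10.7%. Both CCAAT and a CHR word were in 23 of 37 promoters of 20 genes (62.2%), against 8.45% and 9.7%. The GC-rich word GGCGG was in 97.3% of the mitosis promoters in 91.4% of the protein-coding promoters under H3K4me3, in 71.6% of all protein-coding promoters and in 59% of the whole table. E2F-like words were few. TTCGCGC was in 10.8% of the mitosis promoters, against 2.88% of protein-coding and 2.25% of all promoters. TTTGGCGC was in 2.70%, against 0.816% and 0.652%, and TTTCCCGC was in 2.70%, against 1.99% and 1.63%. In 48 promoters of DNA replication genes these 3 words were in 20.8%, 12.5% and 20.8%, CCAAT was in 58.3% and TTTGAA was in 2.08%. Median GC content was 61.3% in the mitosis promoters and 62.3% in all protein-coding promoters.

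Counting the annotated start as base 0, the 45 CHR words of 25 genes began between bases -211 and 43, with a median of -30. In CDC25C and in PTTG1 the same word lay in overlapping windows and was counted for each start. Of the 45, 28 words, in 22 genes, began between -60 and 40, a window set after the positions were seen. In all, 62.2% of the mitosis promoters had a CHR word between -60 and 40, against 6.69% of protein-coding promoters and 8.45% of all. For each of these 28 words, the distance was taken from its first base to that of the nearest CCAAT upstream, where there was one. It was 25 bases in CCNB1, CCNB2 and KIF11, 26 in KIF20A, 33 in PRC1 and 44 in PLK1. Over the 21 words with a CCAAT upstream, in 18 genes, it ran from 9 to 253 bases with a median of 33; words of MKI67, CENPA and CDK1 that share the same CCAAT were each counted. In MKI67 the second TTTGAA shares bases with an ATTGG. In INCENP the CHR word ends just before the start.

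**Figure D1:**
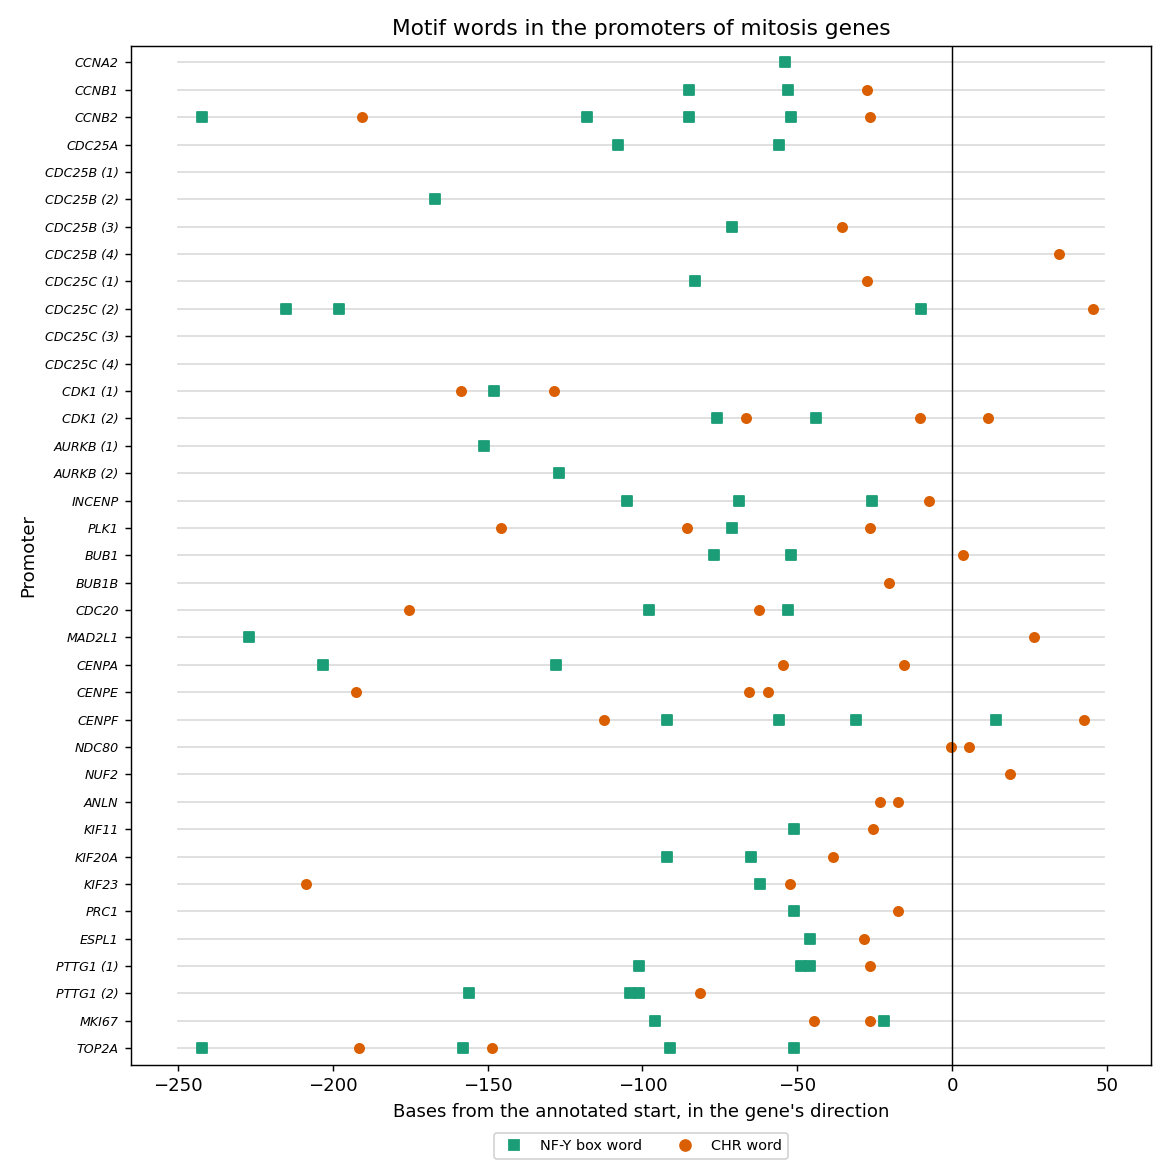
Each row is a promoter of a mitosis gene (genes with several annotated starts have several rows), and the x axis gives bases from the annotated start in the direction of the gene. Squares mark CCAAT boxes and circles mark CHR words; most circles lie between -60 and 40, and CCNA2, CDC25A and AURKB have squares only.

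Every one of the 34 genes had an H3K4me3 peak at a gene end (100%, 89.7 to 100%), against 49.4% of the 20037 protein-coding genes. Each had exactly 1 such peak, as did 95.6% of all genes with H3K4me3 at an end, and none of the 34 had H3K4me3 at both ends, against 6.88%. In all 28 genes with a listed start, a start lay inside an H3K4me3 peak (87.7 to 100%), against 49.3% of 15843 genes with a listed start. With a −log10 q of at least 10 required of a peak, 14 of 34 genes had H3K4me3 at an end, against 22.3%. Most of the peaks were longer than the general median. Their median length was 1907 bp (951 to 3466 bp), against 1496.5 bp over the 8366 H3K4me3 peaks at protein-coding gene ends, and 24 of 34 lay above that median (70.6%, 52.5 to 84.9%). Their median pileup, the mean depth of extended fragments over the peak, was 12.8, against 13.5 for all end peaks, and 14 of 34 lay above the general median (41.2%, 24.6 to 59.3%). The median fold enrichment over the local background was 4.57 against 4.55.

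Length and pileup did not go together: across the 34 peaks, which share 1 library, Pearson's r was -0.09 and Spearman's rho -0.16, as a description. BUB1, 1st in length and 4th in pileup, and AURKA, 5th and 3rd, were near the top in both. AURKB was low in pileup at an ordinary length, and KIF11 was among the longest peaks with a low pileup.

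**Figure D2:**
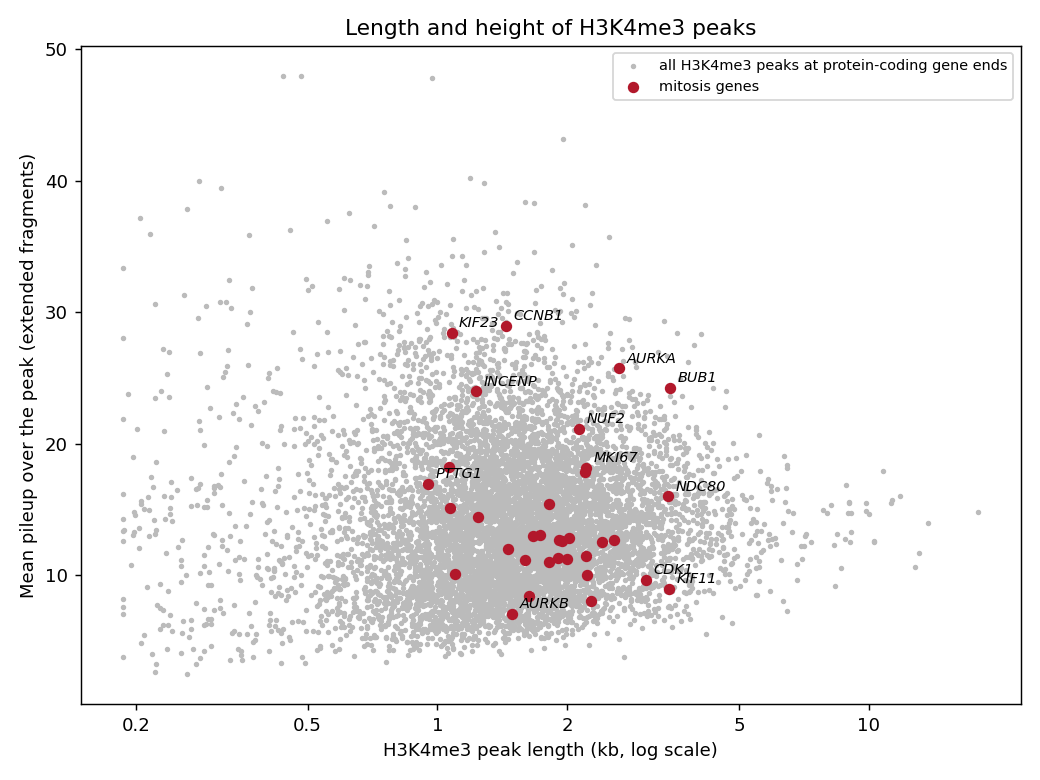
Length of each H3K4me3 peak at a gene end (x axis, kb, log scale) against its mean pileup in extended fragments (y axis), with 1 point a peak from the 1 H3K4me3 library; grey points are all 8366 peaks at protein-coding gene ends and red points are those of the mitosis genes. The 34 red points run from 951 bp (PTTG1) to 3466 bp (BUB1) and from a pileup of 7.07 (AURKB) to 28.99 (CCNB1).

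CDK1, the kinase that drives entry into mitosis, had a long and low peak of 3053 bp with a pileup of 9.66 (chr10:60778064-60781116). CCNB1, encoding its main mitotic cyclin, had a short and high one of 1442 bp with a pileup of 28.99 (chr5:69166718-69168159), higher than 98.3% of all end peaks. The peak of CCNB2, a second B-type cyclin, was 1663 bp with a pileup of 13.02 (chr15:59104719-59106381). The peaks of the 2 B-type cyclins thus differed in height in this library, and a link between height and promoter words was not tested. CCNA2, the A-type cyclin of S phase and early mitosis, had 1948 bp with a pileup of 12.64 (chr4:121822367-121824314). The CDC25 phosphatases activate CDK1 and CDK2 by removing inhibitory phosphates. CDC25A had 1726 bp with a pileup of 13.1 (chr3:48186865-48188590), CDC25B 1239 bp with 14.46 (chr20:3786283-3787521) and CDC25C 2224 bp with 10.0 (chr5:138337284-138339507).

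CDC25B and CDC25C were the only 2 of the 34 genes with a further H3K4me3 peak inside the gene and away from its ends, which 8.31% of all protein-coding genes had. In CDC25B it was 2408 bp with a pileup of 9.34 (chr20:3795762-3798169), from 8811 to 11218 bp past the outermost start, and covered the annotated inner starts at 3795789 and 3796310. In CDC25C it was 1329 bp with a pileup of 8.70 (chr5:138331051-138332379), from 5976 to 7304 bp past the outermost start, over inner starts at 138331804 and 138331877. In both genes the promoter of the outermost start held neither a CHR word nor CCAAT, and an inner one held both. The inner start of CDC25B at 3796310 had CCAAT from base -73 and TTCGAA from -38, and that of CDC25C at 138331804 had CCAAT from -85 and TTTGAA from -30. All the marked starts of the 2 genes were listed in RefSeq, and which of them are transcribed was not measured.

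Among the mitotic kinases, AURKA, which matures centrosomes and the spindle poles, had the longest and highest peak, 2644 bp with a pileup of 25.74 (chr20:56390988-56393631). AURKB, the kinase of the chromosomal passenger complex that corrects wrong attachments, had 1493 bp with a pileup of 7.07 (chr17:8209628-8211120), the lowest of the 34 and above only 6.45% of all end peaks. Its partner INCENP, the scaffold of that complex, had 1230 bp with a pileup of 24.01 (chr11:62123884-62125113). BIRC5, or survivin, which brings the complex to chromatin, had 1100 bp with a pileup of 10.11 (chr17:78214223-78215322). The 3 passenger genes thus spanned most of the range of pileup, and all were shorter than the general median. PLK1, the Polo kinase that acts at centrosomes, kinetochores and the midzone, had 1910 bp with a pileup of 12.67 (chr16:23678486-23680395).

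The 6 genes of the spindle checkpoint and its target had the longest peaks of the larger role groups, with a median of 2233.5 bp and a median pileup of 11.9. BUB1, a kinase that loads checkpoint proteins on kinetochores, had the longest peak of all 34, 3466 bp with a pileup of 24.28 and a fold enrichment of 10.8 (chr2:110675550-110679015); its fold was above 99.0% of all end peaks. BUB1B, encoding BUBR1 of the mitotic checkpoint complex, had 2272 bp with a pileup of 8.05 (chr15:40160958-40163229). BUB3, which binds both of them, had 1633 bp with a pileup of 8.44 (chr10:123154192-123155824). MAD2L1, the MAD2 protein that holds back the anaphase-promoting complex, had 2561 bp with a pileup of 12.72 (chr4:120065516-120068076). TTK, the MPS1 kinase at the head of the checkpoint, had 1598 bp with a pileup of 11.13 (chr6:80003832-80005429). CDC20, the activator of the anaphase-promoting complex that the checkpoint restrains, had 2195 bp with a pileup of 17.86 (chr1:43358262-43360456).

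At the kinetochore, NDC80, which binds the microtubule, had 3429 bp with a pileup of 16.01 (chr18:2570404-2573832). Its partner in the same complex, NUF2, had 2133 bp with a pileup of 21.15 (chr1:163321193-163323325). CENPA, the histone H3 variant that marks centromeres, had a short peak of 1071 bp with a pileup of 15.14 (chr2:26786046-26787116). CENPE, a kinetochore motor, had 1459 bp with a pileup of 12.03 (chr4:103197456-103198914), and CENPF, a large protein of the outer kinetochore, had 1816 bp with a pileup of 10.99 (chr1:214602719-214604534). The peaks at the 2 subunits of the NDC80 complex were thus longer and higher than those at CENPE and CENPF. The peaks at NDC80 and NUF2 also lay at the ends of METTL4 and RGS5, whereas those at CENPE and CENPF touched no other gene end.

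Of the motors and midzone proteins, KIF11, the kinesin that pushes spindle poles apart, had a peak of 3447 bp, longer than 95.2% of all end peaks, with a pileup of only 8.97 and a fold enrichment of 2.39 (chr10:92591327-92594773). KIF23, the kinesin of the centralspindlin complex, was the opposite, with 1080 bp, a pileup of 28.45 and a fold enrichment of 12.3 (chr15:69414263-69415342), above 99.6% of all end peaks in fold. KIF20A, another cytokinesis kinesin, had 2412 bp with a pileup of 12.55 (chr5:138177894-138180305). TPX2, which activates AURKA on the spindle, had 2018 bp with a pileup of 12.81 (chr20:31738684-31740701). ANLN, the anillin of the contractile ring, had 1818 bp with a pileup of 15.39 (chr7:36389826-36391643), and PRC1, which bundles midzone microtubules, had 2209 bp with a pileup of 11.46 (chr15:90993250-90995458).

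The 2 genes of sister chromatid release had short peaks. ESPL1, the separase that cuts cohesin, had 1062 bp with a pileup of 18.25 (chr12:53267835-53268896), and PTTG1, its inhibitor securin, had 951 bp with a pileup of 16.96 (chr5:160421533-160422483), the shortest of the 34. Both chromosome proteins were longer: TOP2A, the topoisomerase that untangles sister chromatids, had 2002 bp with a pileup of 11.21 (chr17:40416400-40418401), and MKI67, which coats mitotic chromosomes and serves as a proliferation marker, had 2211 bp with a pileup of 18.2 (chr10:128124709-128126919). FOXM1, the transcription factor of late cell cycle genes, had 1904 bp with a pileup of 11.3 (chr12:2876280-2878183). In all, 4 of the 34 peaks (11.8%) reached 3 kb, those of CDK1, BUB1, NDC80 and KIF11. The shortest of these, that of CDK1, was longer than 92.5% of all end peaks. None reached 4 kb, which 2.81% of all end peaks did.

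The extra length lay on the gene side of the start. From the most upstream listed start, the H3K4me3 peak reached a median of 1335.5 bp into the gene (570 to 2785 bp) in the 28 genes with a listed start, against 948 bp over 7387 protein-coding genes. Upstream it reached a median of 486 bp, against 580 bp. It was longer downstream than upstream in 23 of 28 (82.1%, 63.1 to 93.9%), against 74% of all genes. CDK1 was the most one-sided in length, with 2785 bp downstream and 267 bp upstream. CENPA, ANLN and KIF23 began almost at the start, with 10, 36 and 86 bp upstream. The 5 genes with more upstream were AURKB, CDC25B, CDC25C, KIF11 and KIF20A. For AURKB, on the - strand, the annotated gene began at 8210575, upstream of its outermost listed start at 8210249. Its split therefore holds for the listed start only. KIF11 reached furthest upstream, with 1803 bp there and 1643 bp downstream.

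**Figure D3:**
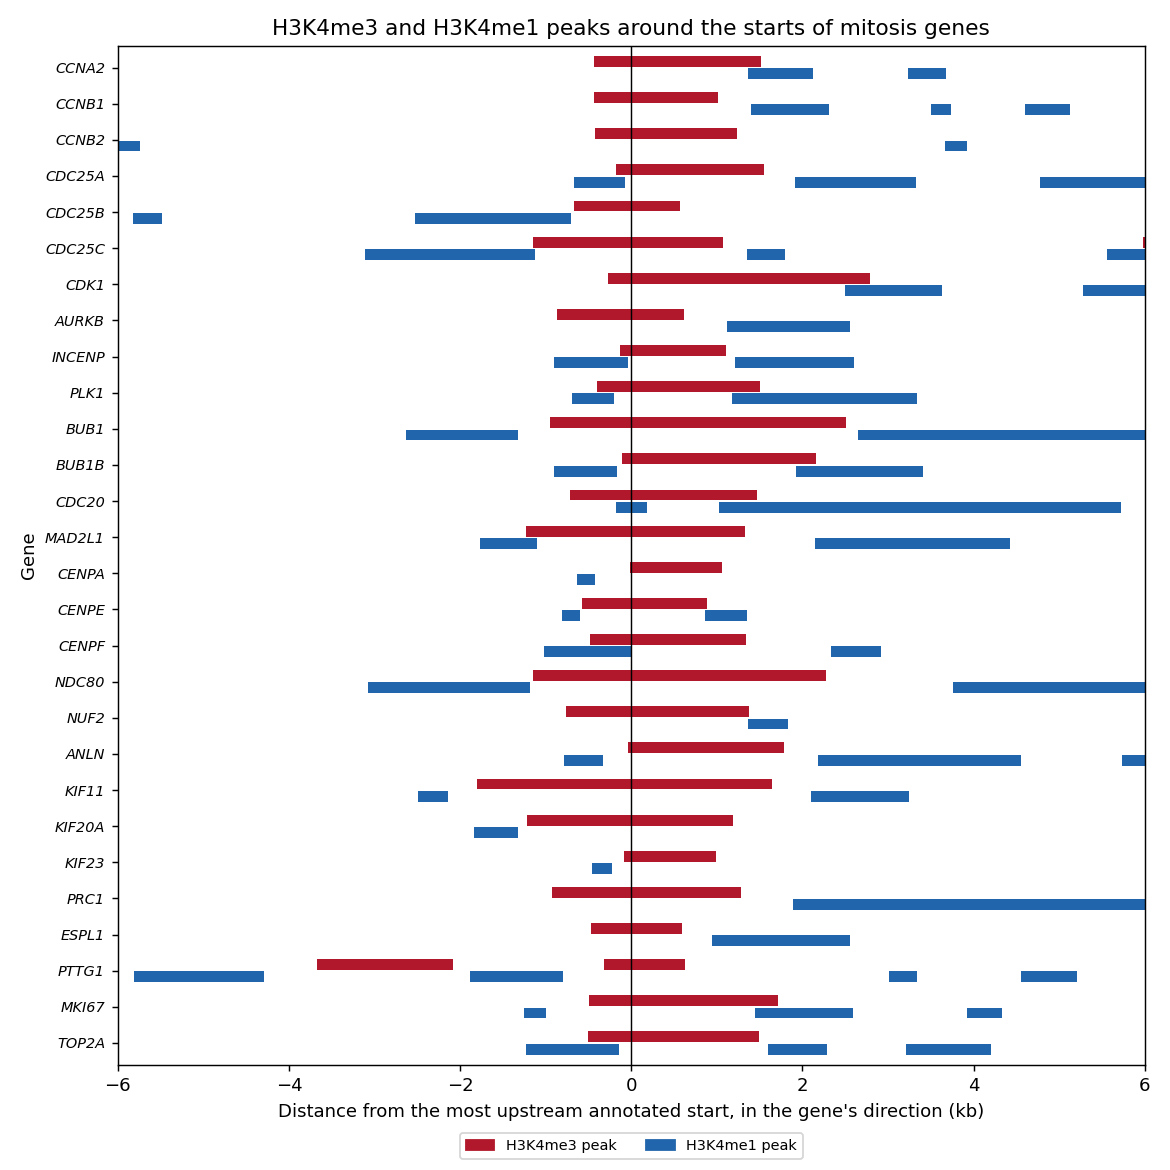
Each row is 1 of the 28 mitosis genes with a listed start. The x axis gives the distance from the most upstream listed start in kb, in the direction of the gene. H3K4me3 peaks are in red and H3K4me1 peaks in blue. The red bars cover the start and mostly reach further right than left (23 of 28), and most blue bars lie outside the red ones.

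Some of these peaks were shared with a neighbour. Of the 34 peaks, 9 (26.5%, 12.9 to 44.4%) also lay at the end of another protein-coding gene, against 22% of all end peaks. The pairs were CCNA2 with BBS7, AURKA with CSTF1, CDC25B with CENPB, CDC25C with FAM53C, NDC80 with METTL4, NUF2 with RGS5, KIF20A with BRD8, ANLN with MATCAP2, and FOXM1 with RHNO1. The partner CENPB is itself a centromere protein and RHNO1 acts in the DNA damage response. A further end in 8 peaks was that of a long non-coding RNA, among them MAD2L1-DT, CDC20-DT and KIF23-AS1, against 22.7% of all end peaks. The peak of 19 genes touched no other gene end, among them CDK1, CCNB1, CCNB2, PLK1, AURKB, KIF11, TOP2A and MKI67. Where a peak is shared, its value cannot be divided between the genes.

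H3K4me1 flanked all but 1 of these peaks on at least 1 side and overlapped 16 of the 34. An H3K4me1 peak within 2 kb of the H3K4me3 peak was found on both sides in 18 of 34 genes (52.9%, 35.1 to 70.2%), against 58% of all end peaks, on 1 side in 15 (44.1%), against 31.4%, and on neither side in 1, CCNB2, against 10.6%. Where H3K4me1 lay on both sides the H3K4me3 peaks had a median of 2010 bp, and where it lay on 1 side, 1598 bp. Over all end peaks these medians were 1621.5 and 1410 bp, so the mitosis peaks were longer within each class. In none of the 34 did the middle of the H3K4me3 peak lie in an H3K4me1 peak, against 6.77%. The 2 marks overlapped by at least 1 bp in 16 genes (47.1%), against 44.9%. In CDC20, CDC25B and CENPF an annotated start lay inside an H3K4me1 peak (3 of 28, 10.7%), against 10.2% of genes with a listed start. Under a −log10 q limit of 10, both flanks were found in 0 of the 14 peaks left, since 1750 H3K4me1 peaks in all passed it. PLK1, with 532 bp, CDC20, with 815 bp, and CENPF, with 481 bp, shared most.

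Among the 28 genes with a strand, H3K4me1 lay within 2 kb upstream of the H3K4me3 peak in 19 (67.9%) and downstream in 22 (78.6%), against 68.3% and 79.8% of all. Both shares were near the background. CDK1, CCNA2, CCNB1, AURKB, CDC20, NUF2, ESPL1 and PRC1 had the downstream side only, and CDC25B, CENPA, KIF23, KIF20A and PTTG1 the upstream side only. The downstream H3K4me1 of BUB1 was the longest: a peak of 7194 bp inside the gene (chr2:110668224-110675417) ended close to the H3K4me3 peak. At a gene end itself, within 1 kb, H3K4me1 was found in 19 of 34 genes (55.9%, 37.9 to 72.8%), against 42.6% of all genes and 68.9% of genes with H3K4me3 at an end. It was at the start end in 15 of the 28 genes with a strand (53.6%). The share was 59.0% of 78 further mitosis genes and 45.9% of 37 DNA replication genes with a strand. H3K4me1 was at the far end in 4 of the 28 (14.3%), CDC20, CDC25B, CENPE and MKI67, against 15.4% and 21.6% in those lists. For either end, the share over all protein-coding genes is not given here. In CDC25B the far end had a peak of 5030 bp with a pileup of 11.01 (chr20:3803545-3808574).

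Inside the gene bodies, 29 of 34 genes had H3K4me1 (85.3%), against 60.5% of all protein-coding genes, with or without H3K4me3. The share was 89.0% in 91 further mitosis genes and 88.4% in 43 DNA replication genes. In the 34, H3K4me1 covered a median of 8.01% of the gene, against 7.37% for genes with H3K4me3 at an end. CDC20 was covered over 80.1% of its short length, mostly by 1 peak of 4697 bp (chr1:43360003-43364699). CDC25B followed with 49.9%, BUB1 with 33.9% and BUB3 with 32.5%. TTK, CENPA, KIF23, KIF20A and FOXM1 had no H3K4me1 inside.

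Distal H3K4me1 was counted as peaks that overlapped no H3K4me3 peak and lay more than 1 kb from every end of a protein-coding or long non-coding gene. The rule did not leave out peaks within 2 kb of an H3K4me3 peak. The flank and distal counts therefore overlap, as in BUB1 and MAD2L1. The 34 genes had 131 distal peaks within the gene or 50 kb of it, with a median of 3 a gene (0 to 11), the same as over all protein-coding genes and below the median of 4 for those with H3K4me3 at an end. At least 1 was found in 32 of 34 (94.1%), against 77.5% of all genes, 93.4% of the further mitosis genes and 93.0% of the DNA replication genes. Per 100 kb the median was 2.39, against 1.92 for all and 2.89 for the H3K4me3-marked. The peaks were ordinary in size, with a median length of 1013 bp and pileup of 6.26, against 979 bp and 6.43 for all 47106 distal peaks. Of the 131, 43 were inside the mitosis gene, 41 inside another protein-coding gene and 47 outside any.

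NDC80, with 11 distal peaks, and MKI67, with 10, had the most, followed by CDC25A and BUB1 with 9, BUB1B and TOP2A with 8, and KIF11 with 7. CDC25B and KIF20A had none, and CDK1, CCNB2, BIRC5, MAD2L1, CDC20, NUF2 and KIF23 had 1. CCNB1, with 4, had more than CDK1 and CCNB2. The longest was a peak of 7221 bp, 42237 bp outside BUB1B (chr15:40111611-40118831). BUB1 held the next ones, both inside the gene. They were the peak of 7194 bp already given as its downstream flank, and one of 6561 bp (chr2:110657364-110663924). The highest lay 35023 bp beyond PTTG1, with a pileup of 22.20 and a fold enrichment of 8.19 over 1013 bp (chr5:160463768-160464780). Gene length and the number of distal peaks went together across the 34 genes with Spearman's rho 0.45, as a description; the window widens with the gene.

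**Figure D4:**
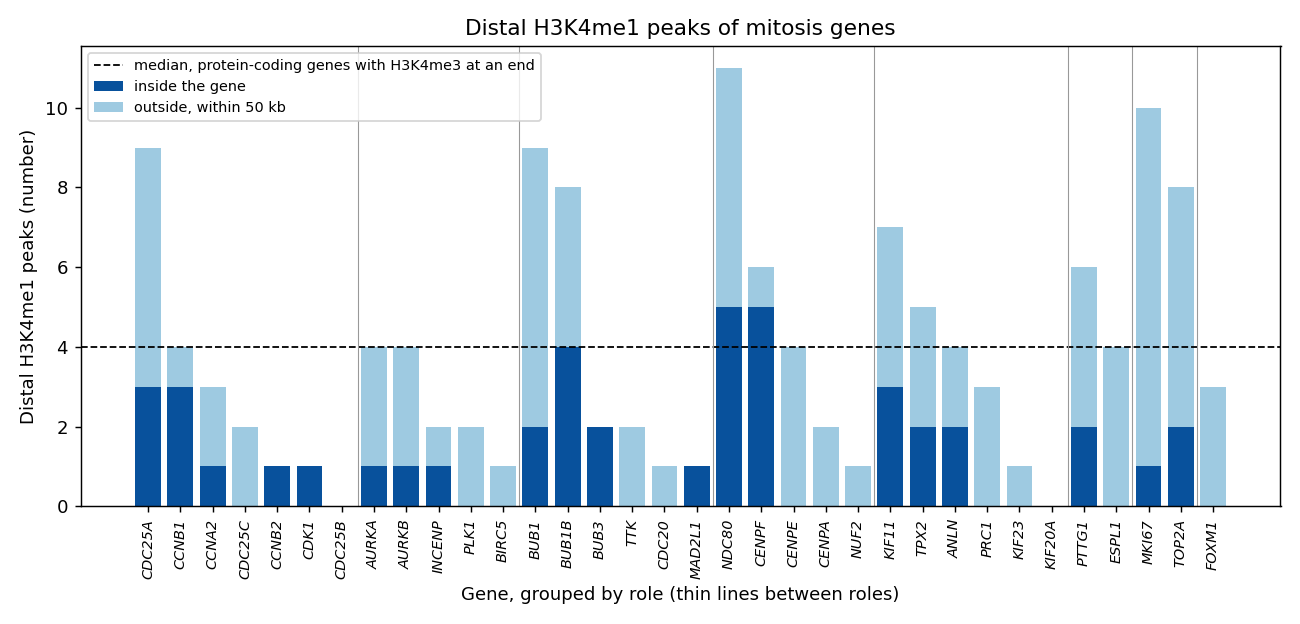
Number of distal H3K4me1 peaks (y axis) of each of the 34 mitosis genes (x axis, grouped by role), split into those inside the gene (dark) and those outside within 50 kb (light). The dashed line is the median of 4 for protein-coding genes with H3K4me3 at an end; NDC80 and MKI67 reach 11 and 10, and CDC25B and KIF20A have 0.

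Other genes of the same processes gave a wider view. Of 91 further mitosis genes, 87 had H3K4me3 at an end (95.6%, 89.1 to 98.8%), and of 43 genes of DNA replication, 41 did (95.3%, 84.2 to 99.4%), so complete marking was not particular to the 34. The exceptions were ANAPC5, a subunit of the anaphase-promoting complex, RACGAP1, the partner of KIF23 in centralspindlin, SMC2, a condensin subunit, and UHRF1, which maintains DNA methylation, together with the replication genes ORC1 and RPA3. All 6 had an H3K4me3 peak inside the annotated span, of 1533, 817, 2670, 2834, 2307 and 2100 bp. In ANAPC5 and ORC1 this peak covered the listed start, which lay away from the span's end. A listed start lay inside H3K4me3 in 76 of the 78 further mitosis genes with one, and in all 37 such replication genes. Peak length was less even: the median was 1626 bp in the other mitosis genes and 1576 bp in the replication genes, against 1907 bp in the 34. Peaks above the general median length made up 63.7% and 63.4% in these lists, against 70.6% in the 34. Peaks of 3 kb or more made up 9.89% and 12.2%, against 11.8%, so long peaks were not particular to the 34 either. The reach into the gene had medians of 1017.5 and 1016.5 bp, against 1335.5 bp, and median pileups were 13.4 and 14.3, against 12.8. The longest of the other mitosis genes were CKS2, a CDK-binding subunit, with 4889 bp, SMC4, a condensin subunit, with 4698 bp, and WEE1, the kinase that inhibits CDK1, with 4400 bp.

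The other mitosis genes shared the promoter words in part. TTTGAA was in 43.6% of their 101 promoters, any CHR word in 54.5%, CCAAT in 54.5% and both kinds in 35.6%, in each case between the shares of the 34 genes and those of all protein-coding promoters. A shared H3K4me3 peak at another protein-coding gene end was more frequent there, with 37 of 91 peaks (40.7%), and in the replication genes, with 16 of 41 (39.0%). H3K4me1 at an end was found in 63.7% of the other mitosis genes and 58.1% of the replication genes, against 55.9% in the 34.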

How the data were processed

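ChIP-seq of H3K4me3 and H3K4me1, with input DNA, was done in ALL-SIL cells, 1 library each. Peaks were called by the authors with MACS2 2.1.0.20150731 on GRCh38 in broad mode against the input, per the file headers, with broad and strong q-value limits of 0.1 and 0.05 and 1 tag kept per position. For the aligner, a version is not given in the sources used here. Pileup, as the authors deposited it, is a coverage signal, the mean depth of extended fragments over a peak. The deposited fold is a ratio to the local background, and the deposited p- and q-values are −log10 values. All are the authors' own values for each peak and were used within 1 list only.

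From these tables, peaks were placed at ends (1 kb each side), inside and within 50 kb of RefSeq genes, and the same was done for all protein-coding genes. All 34 members were named. The members and gene lists were chosen with earlier results of these data known. Interval calculations were tested on simulated data. Alternatives covered the q-value limit, the list size, the windows, the overlap rule and, chosen after seeing the data, the reach past the start, shared ends and promoter words. There was no test between groups, since each mark had 1 library. Of the lineage markers, 1 is not reported here.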

Additional observations from a re-analysis of the deposited data

How the results depend on the processing

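Of 51 alternative values, 29 stayed within the spread, the interval or, for counts, 1.5 times, and 22 moved. Requiring a −log10 q of at least 10 left H3K4me3 at an end in 14 of the 34 genes (all protein-coding genes: 22.3%) and at a start in 13 of 28, H3K4me1 at an end in 0, both flanks in 0 of 14, overlap in 0 and a median of 0 distal peaks. With the 5550 H3K4me3 and 31044 H3K4me1 peaks of highest −log10 q these values were 17 (all protein-coding genes: 25.7%), 16 of 28, 12, 4 of 17, 5 of 17 and 1.5. When the H3K4me1 list was shortened to the size of the H3K4me3 list, H3K4me1 was at an end in 5, on both flanks in 1, overlapping in 5, and the distal median was 0. An end window of 2.5 kb put H3K4me1 at an end in 32. The distal median was 1.5 within 25 kb, 5 within 100 kb and 6 when any H3K4me1 peak counted. Overlap was 0 if H3K4me1 had to cover 50% of the H3K4me3 peak, and 33 if a 1 kb gap counted as overlap. Peak length, reach past the start, shared ends and promoter words stayed within these bounds; median length ran from 1726 to 1907 bp. Median pileup was 18.2 under the stricter limit and 17.9 in the list of 5550, against 12.8, a rise smaller than the SD between genes. Selecting peaks by −log10 q favours high peaks, and the medians of all end peaks under these limits are not given here. These values therefore cannot be set against the general median. No paired analysis was possible because each mark had 1 library. The stricter limit left 1750 of 62087 H3K4me1 peaks and 4828 of 11100 H3K4me3 peaks; what depth adds to this was not tested.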

Other observations

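Several distal H3K4me1 peaks counted for a mitosis gene lay within a neighbour with another role. The distal peak of TPX2 with the highest pileup, 15.94 at a fold enrichment of 6.89, was inside BCL2L1, the gene of an inhibitor of apoptosis, 38072 bp away (chr20:31698032-31701217). For MKI67, 3 distal peaks were in PTPRE, a phosphatase gene. For AURKA, 3 were in CASS4, and for ESPL1, 2 were in RARG, a retinoic acid receptor gene. Which gene such a peak serves was not measured.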
